A study of Oryza sativa with 6 samples.

Results

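A set of 10 genes was listed for the acquisition of iron in rice (Oryza sativa, cultivar Nipponbare), and 9 of them have a row among the 30020 genes measured. They were chosen by name, as the enzymes that make the iron chelator deoxymugineic acid, the transporters that release it or take up iron, and a transcription factor of the same pathway. The names were put forward with results of the genotype comparison known, and none of its values is used here to describe them. RNA came from seedlings of 30 days, kept on diluted MS medium for 10 days and on full MS medium for 20 days, with daily periods of 14 h light (30 °C) and 10 h darkness (28 °C). Poly(A) RNA was sequenced in strand-specific libraries from 3 samples of oschz1, a CRISPR/Cas9 knockout of the histone chaperone gene OsChz1, and 3 samples of wild-type. The study sequenced a single mutant line, oschz1-1, and took each RNA from several seedlings. Age, medium and light were the same in both genotypes.

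The values described are the authors' mean normalized counts, which are read counts divided by the size factor of each library and averaged over all 6 libraries. A mean of this kind joins oschz1 with wild-type, so it gives the level of a gene in the whole set of seedlings but neither its difference between genotypes nor its spread between samples. Levels are therefore reported without SD, and no test was made. The size factors follow the depth of the libraries and lay between 0.596 and 1.59, with a mean of 1.07. The median gene had a mean normalized count of 154.7, and the lowest value in the table was 0.21. Longer transcripts give more reads, so levels and percentiles on this scale place each gene among all others without correction for its length.

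Grasses take up iron by releasing phytosiderophores, small chelators that bind ferric iron in the soil and return with it into the root. Rice makes deoxymugineic acid from S-adenosylmethionine in successive steps, through nicotianamine, which plants also use to move metals between their own tissues. Rice is unusual among grasses in that it also absorbs ferrous iron directly. Much of this pathway is known to be active in roots that lack iron, and MS medium supplies iron.

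The members lay at very different levels. Across the 9 measured members, the mean normalized count ran from 0.244 for TOM1 to 1220 for NAAT1, with a median of 55.4. Of these 9, the 3 above the median gene of the table were NAAT1, NAS3 and DMAS1, which all encode enzymes of synthesis. The other 6 members, NAS1, NAS2, TOM1, YSL2, IRO2 and IRT1, lay below it. The median member had a percentile of 38.6 among all genes.

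**Figure D1:**
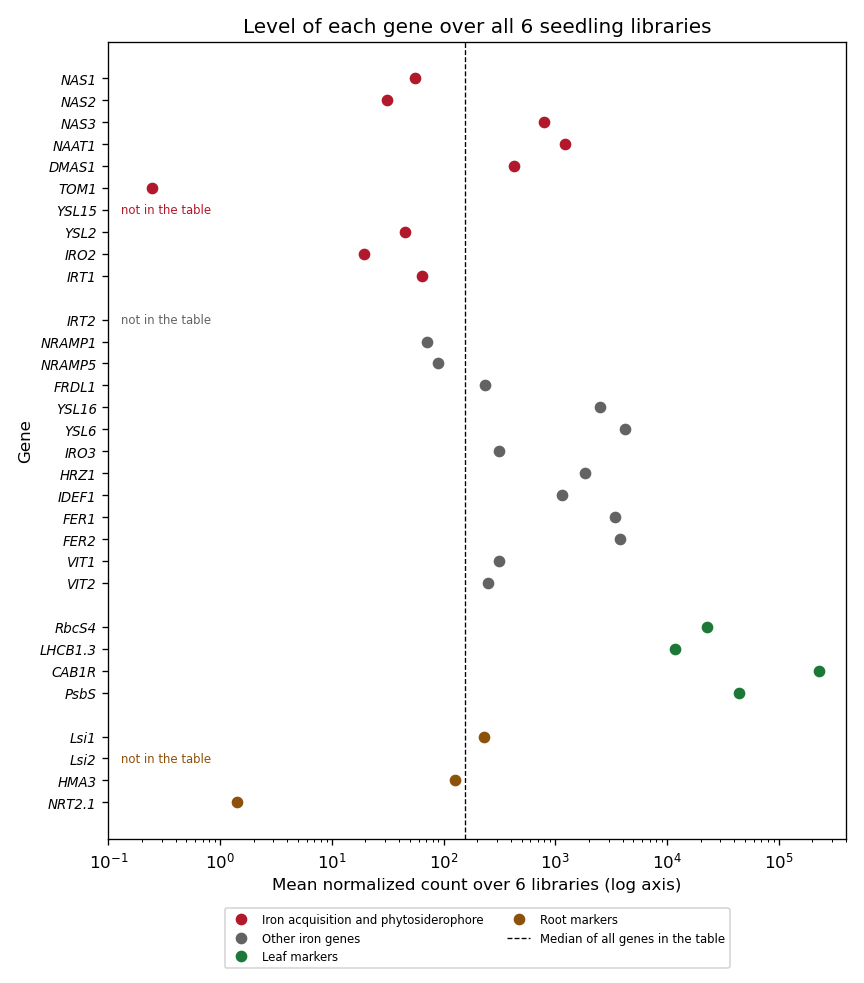
Mean normalized count over the 6 libraries (log axis) for each gene by name, coloured by list, with the median of all genes as a dashed line and genes without a row marked as not in the table. NAAT1, NAS3 and DMAS1 lie right of the line at 154.7, the other 6 measured members lie left of it, and the leaf markers lie furthest right, at 11869 or more.

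Nicotianamine synthase, the enzyme of the first committed step, is encoded by NAS1, NAS2 and NAS3. NAS1 (LOC_Os03g19427, chromosome 3) had a mean normalized count of 55.4, a percentile of 38.6. NAS2 (LOC_Os03g19420, chromosome 3) had a mean normalized count of 31.3, a percentile of 33.5. NAS3 (LOC_Os07g48980, chromosome 7) had a mean normalized count of 790.6, a percentile of 78.1. NAS3 thus held 90.1% of the summed normalized count of these genes, NAS1 6.32% and NAS2 3.57%. In rice, NAS1 and NAS2 are known to respond to iron shortage in roots, while NAS3 is known to be expressed in shoots with sufficient iron.

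The spans of the NAS genes are similar in the reference annotation, at 1397 bp for NAS1, 1474 bp for NAS2 and 1630 bp for NAS3. Their order was therefore the same per kb of span. Per kb of span, the level was 39.7 normalized counts for NAS1, 21.2 for NAS2 and 485 for NAS3. On this scale NAS3 stood 12.2 times above NAS1 and 22.9 times above NAS2, and NAS1 stood 1.87 times above NAS2. NAS1 and NAS2 are neighbours, with 0 other genes between them in the reference annotation. They are close copies, and the study kept unique alignments, so reads that fit both would be missing from their levels. How many such reads there were was not tested. Any such loss would make the share of NAS3 and its ratios to NAS1 and NAS2 too high.

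Nicotianamine aminotransferase, encoded by NAAT1, converts nicotianamine to the precursor of deoxymugineic acid, and the synthase encoded by DMAS1 completes it. NAAT1 (LOC_Os02g20360, chromosome 2) had the highest level of the members, with a mean normalized count of 1220 and a percentile of 85.5. DMAS1 (LOC_Os03g13390, chromosome 3) had a mean normalized count of 427 and a percentile of 66.4. Both were thus in the upper part of the distribution, as was NAS3. Per kb of span, which for NAAT1 includes introns (5498 bp) and so understates it, NAAT1 had 222 normalized counts. This was 5.6 times the level of NAS1 and 0.458 times that of NAS3. The order of NAAT1 and NAS3 on the deposited scale thus turned round per kb of span. Their order per transcript length, without introns, was not computed and is not known from this. DMAS1 had no span in the reference annotation and was not placed on this scale.

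**Figure D2:**
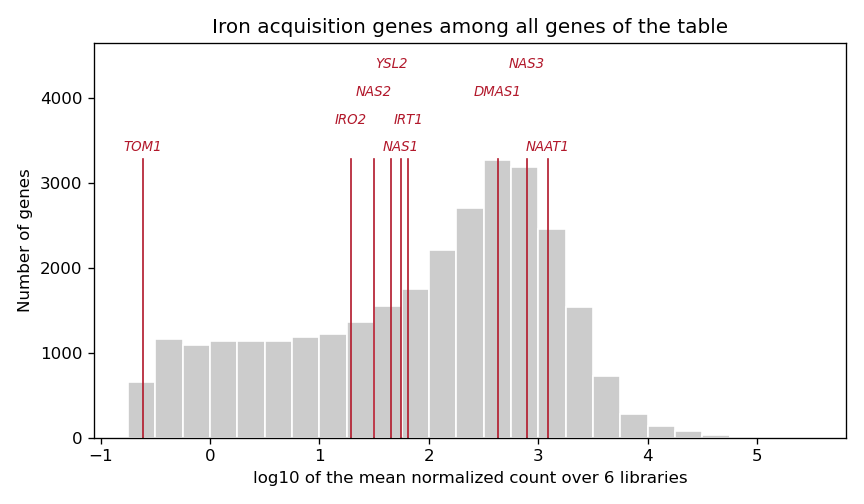
Number of genes (vertical axis) by log10 of the mean normalized count over the 6 libraries (horizontal axis), with a red line for each measured member. TOM1 stands in the lowest bin, IRO2, NAS2, YSL2, NAS1 and IRT1 lie between 19.2 and 64.5 normalized counts, and DMAS1, NAS3 and NAAT1 lie at 427 or more.

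TOM1 encodes the transporter that releases deoxymugineic acid from roots, and it was nearly without counted reads. Only unique alignments were kept, so any reads that fit TOM1 and another locus equally would be missing from its level. How many such reads there were was not tested. Its mean normalized count of 0.244 (LOC_Os11g04020, chromosome 11) equals exactly 1 read in each of 2 libraries and none in the others, a total of 2 reads over the 6 libraries. The exact 95% Poisson interval of such a total is 0.242 to 7.22 reads, which covers counting error only. Each row was taken to hold at least 2 reads, and 1062 genes stood at this lowest total. The interval does not allow for that limit. The libraries that held these reads had size factors of 1.59 and 1.19, and their genotype is not known from the mean. A difference between genotypes was not detectable at this depth for TOM1. The next loci in the table on both sides had mean normalized counts of 244 (LOC_Os11g04010) and 98.3 (LOC_Os11g04030).

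The transporters of uptake and distribution were low or had no row. YSL15, the carrier that takes the iron complex of deoxymugineic acid into the root, was listed as LOC_Os02g43410 and has no row in the table used here, so no level is given. In the reference annotation 1 gene lies between YSL15 and YSL2. YSL2 (LOC_Os02g43370, chromosome 2), which carries iron and manganese bound to nicotianamine, had a mean normalized count of 45.2 and a percentile of 36.7. IRT1 (LOC_Os03g46470, chromosome 3), the transporter of ferrous iron, had 64.5 normalized counts and a percentile of 40.1. Per kb of span, introns included, IRT1 had 11.0 normalized counts and YSL2 9.65. IRT1 was thus 1.14 times as high as YSL2 on this scale, and with no spread between samples it cannot be said whether they differ.

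IRO2 encodes a bHLH transcription factor that activates genes of phytosiderophore synthesis and uptake under iron shortage, among them NAS1, NAS2, NAAT1, TOM1 and YSL15. IRO2 (LOC_Os01g72370, chromosome 1) had a mean normalized count of 19.2, a percentile of 29.6, the lowest level among the measured members other than TOM1. This order is not corrected for length, and no span was available for IRO2. Of these genes, NAAT1 stood at 1220, NAS1 at 55.4, NAS2 at 31.3 and TOM1 at 0.244 normalized counts, and YSL15 has no row. Whether they vary together between samples was not tested, because the values used here are means over all libraries.

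The precision of a level depends on the reads behind it. The size factors bound the reads of a gene over the 6 libraries together, which lie between its summed normalized count times the lowest size factor and the same sum times the highest. IRO2 rested on 68.8 to 183 reads, NAS2 on 111.8 to 298 reads and YSL2 on 161.7 to 431 reads. For these genes the relative standard error from Poisson counting alone is at most 12.1%, 9.46% and 7.87%. These are standard errors at the lower bound of the reads, so a 95% interval would be wider. NAS1 rested on 198 to 528 reads and IRT1 on 230.5 to 615 reads, with standard errors of at most 7.11% and 6.59%. DMAS1, NAS3 and NAAT1 rested on at least 1526, 2826 and 4362 reads, with standard errors of counting of at most 2.56%, 1.88% and 1.51%. These errors do not include the variation between seedlings.

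**Figure D3:**
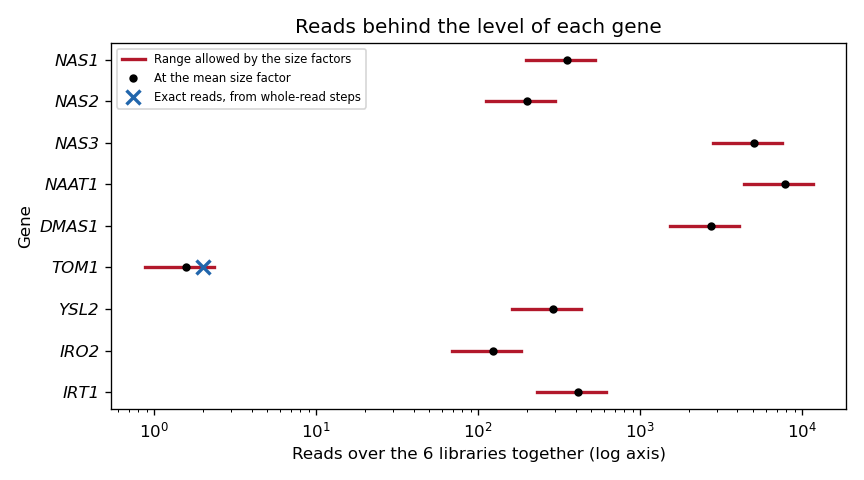
Reads over the 6 libraries together (horizontal log axis) for each measured member, with a bar for the range that the size factors allow and a point at the mean size factor. NAAT1 rests on at least 4362 reads and IRO2 on at least 68.8 reads, whereas TOM1 had 2 reads, drawn as a cross.

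Other genes of iron handling were mostly above the median gene. Of 13 such genes, 12 have a row in the table, and 10 of them lay above the median gene, with a median of 734 and a range of 71.1 to 4208 normalized counts. The iron stores of the plastid, encoded by the ferritin genes FER1 (LOC_Os11g01530) and FER2 (LOC_Os12g01530), were at 3397 and 3832 normalized counts. The 2 ferritin genes are close copies, so their separate levels are uncertain in the same way as those of NAS1 and NAS2. Among relatives of YSL2, YSL16 (LOC_Os04g45900) had 2510 and YSL6 (LOC_Os04g32050) 4208 normalized counts. Per kb of span these were 65.0 and 95.3 times the level of YSL2. HRZ1 (LOC_Os01g49470), a ubiquitin ligase that restrains the iron shortage response, had 1833 normalized counts, and IDEF1 (LOC_Os08g01090), a transcription factor of that response, had 1154. IRO3 (LOC_Os03g26210), a bHLH factor that represses it, had 314 normalized counts, and the activator IRO2 had 19.2, neither corrected for length.

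The remaining genes of that list carry metals or citrate. The vacuolar iron transporters VIT1 (LOC_Os04g38940) and VIT2 (LOC_Os09g23300) had 313 and 252 normalized counts, and the citrate transporter FRDL1 (LOC_Os03g11734) had 234. NRAMP5 (LOC_Os07g15370), the main manganese uptake transporter of rice roots, had 90.0 and its relative NRAMP1 (LOC_Os07g15460) 71.1, which made them the members of that list below the median gene. IRT2, listed as LOC_Os03g46454, has no row in the table used here.

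Because much of this pathway works in roots, the tissue was checked with markers of leaf and root. All 4 leaf markers were high, with mean normalized counts from 11869 for LHCB1.3 (LOC_Os01g52240) to 227551 for CAB1R (LOC_Os09g17740), the highest gene of the table, and a sum of 306425. The other leaf markers, RbcS4 (LOC_Os12g19470) and PsbS (LOC_Os01g64960), had 23023 and 43982 normalized counts. Of 4 root markers, 3 have a row in the table, with a sum of 361. The silicon transporter gene Lsi1 (LOC_Os02g51110) had 232 normalized counts and the cadmium transporter gene HMA3 (LOC_Os07g12900) 128. The nitrate transporter gene NRT2.1 (LOC_Os02g02170) had 1.41, which is 8 reads over the 6 libraries, of which 4 were in a single library. Lsi2 (LOC_Os03g01700) has no row in the table used here. Lsi1 lay above the median gene of the table, and HMA3 and NRT2.1 lay below it. The share of root in each sample is not given by the labels. The marker levels do not measure it, because no sample of root alone was sequenced for comparison. The sums of the leaf and root markers add different genes, so they do not give shares of tissue. The number of root cells and the RNA per root cell cannot be told apart in such samples. The part of root content in the levels of the iron genes was not tested.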

How the data were processed

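Reads were trimmed by the authors with cutadapt and mapped with HISAT2 to the Nipponbare genome (build MSU7). They selected unique alignments with SAMtools, counted these per gene with featureCounts, and the authors fitted the counts with DESeq2. For the strand setting of the counting, the value was not given in the sources used here, and antisense reads may be included. The deposited table holds a signal per gene, the mean of counts normalized by the authors over all 6 libraries, and 0 columns of single libraries. Its other 5 numeric columns hold the authors' own comparison of oschz1 with wild-type (log2 fold change, its SE, test statistic, p and adjusted p). They were not used. The planned test between genotypes needs counts of single libraries, so it was not made.

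Samples were grouped by the genotype in the labels, 3 of each, and all members and lists were chosen with earlier results of these data known. All members and list genes with a row were named. The paper describes the 3 samples of each genotype as biological replicates. The labels do not say whether the samples came from separate cultures.

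Size factors were read from the smallest means with Python 3.11.15 and NumPy 2.4.6, since these are sums of whole reads. The smallest mean was taken as 2 reads of the deepest library, and each row as holding at least 2 reads. Given this assumption, all 2243 genes with means under 0.7 were sums of whole reads within 2e-08, and 0 genes had a single read. For the deeper libraries the assumption puts a single read below the lowest mean, so this 0 is partly fixed by it. The read totals of TOM1 and NRT2.1 rest on the same assumption. The step was tested on simulated data with the same minimum and similar size factors, which does not test the assumption. The total mean normalized count was 23667139. Percentiles give the share of the 30020 genes with a lower mean. Poisson intervals were computed with SciPy 1.17.1, and PCR copies are not independent molecules.

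Symbols were paired with MSU locus identifiers from general knowledge. The reference gene table (RefSeq, assembly ASM3414082v1) does not list these identifiers. It places 7 of the 10 symbols on the chromosome of the locus and 2 (TOM1 and IRO2) on another, where the names stand as synonyms of other genes, and it lacks 1 (DMAS1). Gene spans come from this table and are another assembly's gene models. It holds no coding lengths, so the level per coding length was not computed, and span was used in its place, a choice made after seeing the data. No sequences were used here.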

Additional observations from a re-analysis of the deposited data

How the results depend on the processing

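The levels are single means, so the alternatives concern only the genes they are ranked among and the size factor. The median percentile of the members was 38.6 among all genes, 32.9 among genes with means of at least 1 and 19.1 among those of at least 10. Such a limit lowers every percentile by construction, and TOM1 lay below both limits. The median number of reads behind a member was 356 at the mean size factor, 198 at the smallest and 528 at the largest. Of the 15 pairs among the 6 measured members with a span, 4 changed order per kb of span, introns included. The ratio per kb was 0.458, against 1.54 on the deposited scale, for NAAT1 over NAS3. It was 3.61 against 0.859 for NAS1 over IRT1, 1.93 against 0.485 for NAS2 over IRT1 and 2.20 against 0.692 for NAS2 over YSL2. No paired analysis was possible because the table holds no columns of single libraries. For the same reason the planned count tests with their alternatives and the fits without single replicates were not run. The depth limits TOM1 most, with 2 reads.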
